A study of Mus musculus with 20 samples.

Results

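The genes described here are 56 genes of mitosis, the stage of the cell cycle in which duplicated chromosomes are condensed, attached to the spindle, separated and shared between daughter cells. They were listed by symbol and sorted into 8 roles, and each is read by 1 array probe. All 56 were measured, among 19505 genes that carry 1 symbol on the array. The study is described as measuring total RNA of mouse adipose-derived fat cells differentiated in culture, with or without a knockout of Olfm2. This gene encodes the secreted glycoprotein olfactomedin 2. The 20 arrays form 4 groups of 5: Olfm2 knockout (KO) and wild-type (WT) samples of a depot labelled sc, and KO and WT samples of a depot labelled g. The labels give no strain, age or sex, do not describe the deletion or the cells it reaches, and apply no treatment. They also do not state whether the 5 samples of a group are separate animals or cultures. The p-values of differences between groups therefore cover only the spread among arrays within groups, shared over the 4 groups, and this spread may be technical.

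Mitotic genes are transcribed mainly late in the cell cycle, and their transcripts are scarce in cells that have left it. Mature fat cells rarely divide, while their precursors and macrophages resident in fat can. A level of such transcripts in a sample therefore depends on how many of its cells are cycling and on how much each of them transcribes.

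Values are log2 signals, so a difference of 1 is a doubling. A gene was called when its limma p-value, adjusted by Benjamini and Hochberg over all 19505 genes, was under 0.05, and rose and fell are used only for called genes. Array values are listed in the order of the numbers in the titles, from g300 KO and sc300KO to g320 KO and sc320KO among KO arrays and from g286 WT and sc286WT to g309 WT and sc309WT among WT arrays.

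Array medians lay between 5.78 and 5.92. Olfm2 was lower in KO than in WT samples in both depots, with a log2 difference of -0.80 in g (adjusted p = 0.00784) and of -1.66 in sc (adjusted p = 0.000152), with no overlap of the arrays. The mean of 13 measured adipocyte markers was between 10.67 and 11.66 on every array. Markers of other cells were also present, which the description as cultured fat cells does not account for. Whether the samples held other tissue was not tested. The mean of the skeletal muscle markers reached 11.10 on sc286WT. The mean of 16 hepatocyte markers was above 7 on 8 arrays (sc300KO, sc318KO, g306 KO, g317 KO, g318 KO, g320 KO, g286 WT and g308 WT), where it reached 10.45, and between 5.53 and 6.48 on the other 12. The mean of 15 lymphocyte markers was 8.5 on sc317KO, 8.18 on sc320KO and 8.10 on sc286WT, and between 5.12 and 6.76 elsewhere. Of the 56 mitosis genes, 49 had a mean over all arrays above the median negative control signal of 4.65, and 7 dim ones did not (Ttk, Plk4, Knl1, Ncapg, Ckap2, Aspm and Kif4), so no exact fold can be read from their differences. The same holds in g for Bub1, Melk and Sgo1, whose mean over the g KO arrays was below that signal. In sc it holds for Bub1 and Sgo1, below it in both genotypes, and for Pbk, Melk, Hmmr, Kif15 and Kif2c, below it in KO samples. Olfm2 was also dim, with means of 3.54 in g KO and 4.34 in g WT samples, both below 4.65.

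The promoters of 4 genes are printed because these genes had the smallest p-values in the g knockout comparison among those with an entry in the RefSeq promoter table of build GRCm38.p6. They are Cenpe at chr3:135212463-135212612 on the plus strand, Prc1 at chr7:80294351-80294500 on the plus strand, Ndc80 at chr17:71526808-71526957 on the minus strand and Plk1 at chr7:122159335-122159484 on the plus strand. Each runs 5′ to 3′ along the gene, from 100 bases before to 50 bases after its annotated start. Capitals mark TTTGAA or its reverse complement TTCAAA, the core of the cell cycle genes homology region (CHR), and CCAAT or its reverse complement ATTGG, the core of the CCAAT box. Both elements are known from promoters of genes expressed late in the cell cycle.
Cenpe: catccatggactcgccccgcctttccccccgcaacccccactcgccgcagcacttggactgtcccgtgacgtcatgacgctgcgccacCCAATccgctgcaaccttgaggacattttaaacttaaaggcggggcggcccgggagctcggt
Prc1: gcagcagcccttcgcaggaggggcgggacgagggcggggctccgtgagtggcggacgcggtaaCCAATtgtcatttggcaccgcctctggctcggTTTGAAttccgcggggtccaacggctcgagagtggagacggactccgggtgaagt
Ndc80: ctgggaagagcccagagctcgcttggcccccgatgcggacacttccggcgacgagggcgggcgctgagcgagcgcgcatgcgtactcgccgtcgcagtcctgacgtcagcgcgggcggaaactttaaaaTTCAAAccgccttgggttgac
Plk1: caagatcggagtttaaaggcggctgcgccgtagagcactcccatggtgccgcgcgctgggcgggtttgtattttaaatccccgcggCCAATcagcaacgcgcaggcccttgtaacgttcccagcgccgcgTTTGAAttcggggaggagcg

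In these windows Prc1 and Plk1 held both motifs, Cenpe held only the CCAAT letters and Ndc80 only the CHR letters. Of the 56 genes, 48 had an entry in the table, and Pbk, Aurkb, Spc24, Smc4, Cdca2, Tpx2, Dlgap5 and Kif20a had none. In the full window of 250 bases before to 50 after the start, TTTGAA on either strand occurred in 36 of the 48 promoters (75.0%), against 2477 of 15691 promoters of array genes (15.8%). CCAAT on either strand occurred in 33 (68.8%), against 38.8% of all. Both occurred in 29 promoters (60.4%), against 6.54% of all. Within 50 bases of the start, TTTGAA was found in 66.7% of the mitosis promoters and 3.94% of all, and CCAAT in 50% and 13.8%. Matches of the motifs overlapped in 1 promoter. A match is a description of these letters, not a binding site.

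**Figure D1:**
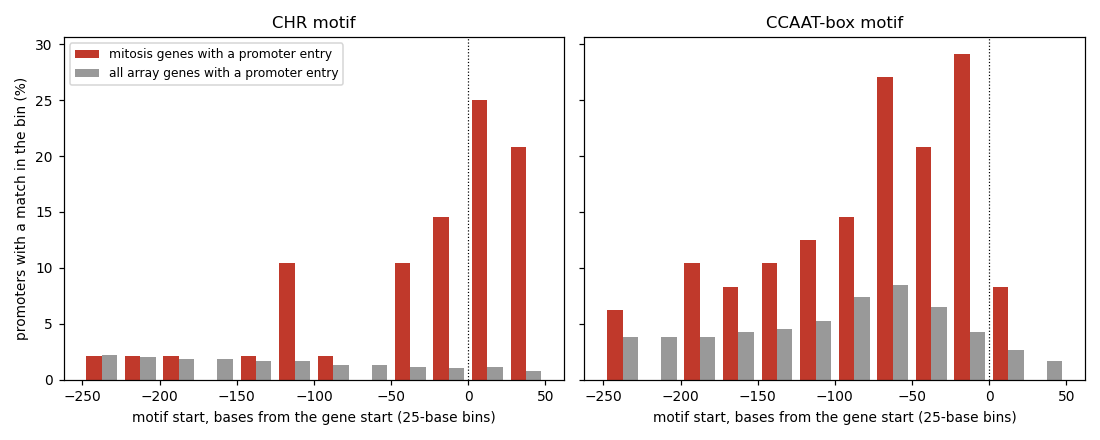
Share of promoters (percent, vertical axes from 0) with a motif starting in each 25-base bin, against distance from the gene start, for the CHR motif (left) and the CCAAT-box motif (right). Red bars are the 48 mitosis gene promoters and grey bars all array genes with an entry; within 50 bases of the start the CHR motif was found in 66.7% of the mitosis promoters and 3.94% of all.

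The first question was whether loss of Olfm2 went with a change of the mitotic transcripts in each depot. In g, 39 of the 56 genes fell in KO samples and 1, Pttg1, rose, while 16 were not called. Over all genes 11.3% were called, 6.27% as lower and 5.01% as higher. The list was chosen with earlier results of these data known, so its contrast with all genes is not independent evidence. The median difference of the 56 genes was -0.75, against 0.02 over all genes, and 53 of them had a difference below 0, as had 46.6% of all genes. All KO arrays lay below all WT arrays for 26 genes, and all lay above for Pttg1 (5.73% and 4.68% of all genes). In such bulk samples fewer cells of a type and less RNA per cell cannot be told apart. Fewer genes of the list were called without g317 KO and g320 KO, the arrays that were lowest for most of them: 12 fell and 1 rose, with a median of -0.42. With the hepatocyte marker mean as a covariate 21 fell and 1 rose. Fewer arrays or an added term can lower the calls over all genes too. The shares of all genes are not given for these fits, so such counts are not read as a result about this list alone. Without the 8 arrays high in hepatocyte markers, which leaves 1 KO array in g that is assumed to vary like the other groups, 0 were called.

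**Figure D2:**
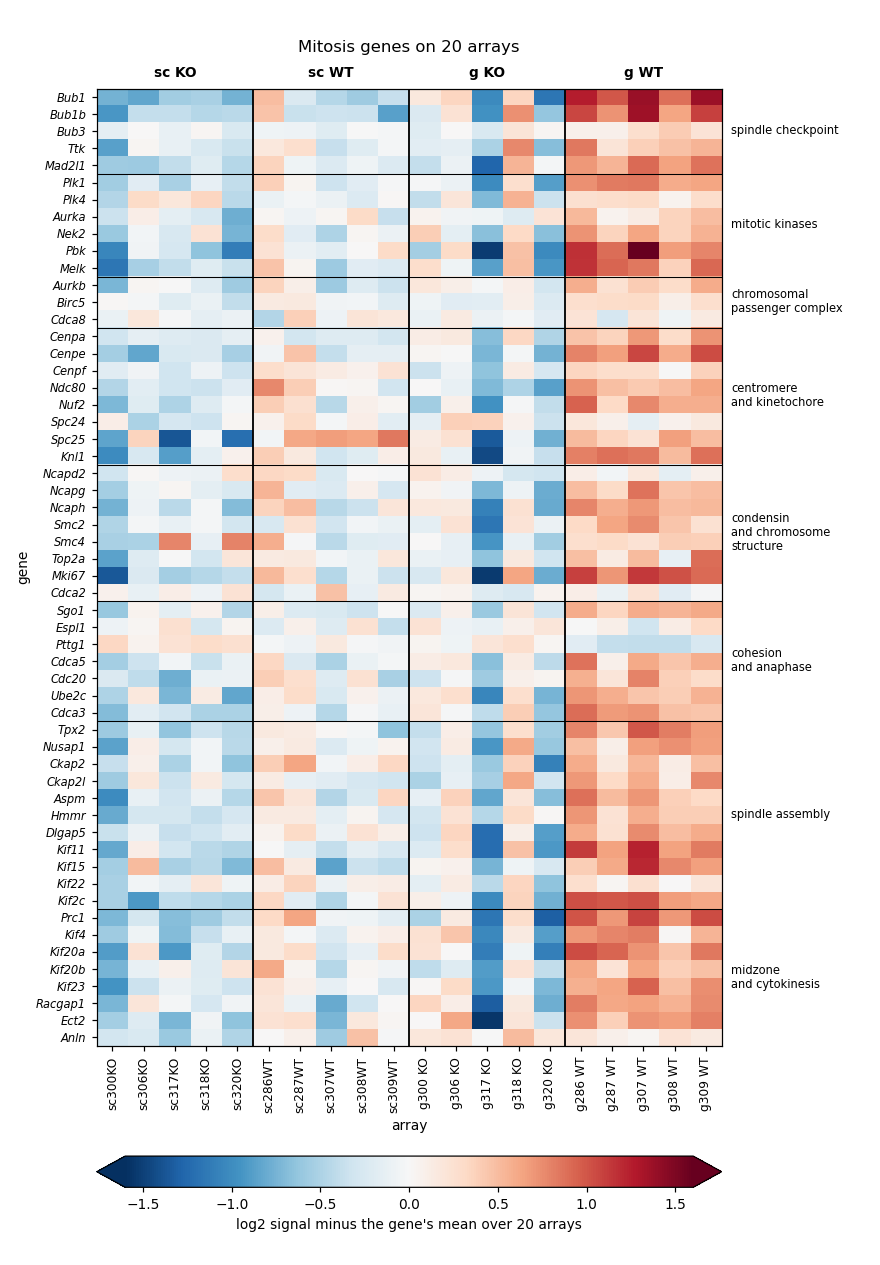
Log2 signal of each mitosis gene (rows, grouped by role) on each of the 20 arrays (columns, grouped as sc KO, sc WT, g KO and g WT), minus the gene's mean over the 20 arrays. The 5 g WT arrays are above the gene means for most rows, g317 KO and g320 KO are the bluest of the g arrays, and the Pttg1 row runs the other way.

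The spindle checkpoint, which delays chromosome separation until every kinetochore is attached, has 5 genes on the list, and 3 of them fell in g KO samples. Bub1, a checkpoint kinase, measured 5.04, 5.21, 3.85, 5.21 and 3.71 in g KO samples and 6.13, 5.86, 6.24, 5.76 and 6.24 in g WT samples. All KO arrays were below all WT arrays, and g317 KO and g320 KO were more than 1 log2 unit below the other KO arrays. Bub1 fell by 1.44 on the log2 scale (SE 0.26, adjusted p = 0.00133), with the KO mean of 4.60 below the negative control median, so no fold is given. Bub1b, whose product BubR1 is part of the inhibitor of the anaphase-promoting complex, fell by 1.14 (adjusted p = 0.0071), and Mad2l1, which encodes the Cdc20-binding protein Mad2, fell by 0.98 (adjusted p = 0.00554). Ttk, the kinase that starts checkpoint signalling, and Bub3, the carrier of Bub1 and BubR1, were not called (-0.64 and -0.25).

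Of 6 mitotic kinases 4 fell. Plk1, which acts in mitotic entry, spindle assembly and cytokinesis, measured 6.26, 6.18, 5.27, 6.54 and 5.40 in g KO samples and 7.01, 7.10, 7.12, 6.87 and 6.90 in g WT samples. The genotypes did not overlap, and the WT arrays spread over a much narrower range than the KO arrays. Plk1 fell by 1.07 on the log2 scale (SE 0.20, adjusted p = 0.00132). Pbk, a kinase of dividing cells, had the largest difference of the list at -1.5 (SE 0.31, adjusted p = 0.0032), Melk fell by 1.06 and the centrosome kinase gene Nek2 fell by 0.68. Aurka, which acts at spindle poles, and Plk4, which starts centriole duplication, were not called (-0.32 and -0.37).

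The chromosomal passenger complex corrects faulty attachments and later acts in cytokinesis, and 1 of its 3 listed genes fell. Birc5, which encodes the subunit survivin, measured 6.93, 6.81, 6.82, 7.09 and 6.77 in g KO samples and 7.25, 7.29, 7.30, 7.09 and 7.26 in g WT samples. The highest KO array and the lowest WT array overlapped narrowly, and the others were apart. Birc5 fell by 0.35 on the log2 scale (SE 0.09, adjusted p = 0.0166). Aurkb, the kinase of the complex, was not called (-0.41, adjusted p = 0.126), although its arrays did not overlap, and neither was Cdca8, which encodes borealin (-0.10).

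Centromere and kinetochore genes, whose products join chromosomes to spindle microtubules, fell in 6 of 8 cases. Cenpe, a kinesin that moves chromosomes to the spindle equator, measured 5.68, 5.64, 4.91, 5.61 and 4.89 in g KO samples and 6.44, 6.31, 6.71, 6.24 and 6.69 in g WT samples. No KO array reached the lowest WT array, and g317 KO and g320 KO were again lowest. Cenpe fell by 1.13 on the log2 scale (SE 0.18, adjusted p = 0.000514), the smallest p of the list. Within the 4-subunit Ndc80 complex, which binds the microtubule, Ndc80 and Nuf2 fell, with log2 differences of -0.98 and -1.01, whereas Spc25 and Spc24 were not called (-0.81, adjusted p = 0.104, and -0.0002, adjusted p = 1). Knl1, the kinetochore scaffold for Bub1, fell by 1.15, the centromeric histone gene Cenpa fell by 0.61, and Cenpf fell by 0.50.

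Of 8 genes of condensin and chromosome structure 4 fell. Ncapg, a regulatory subunit of the condensin I complex that compacts chromosomes, measured 4.64, 4.54, 3.88, 4.51 and 3.80 in g KO samples and 5.08, 4.90, 5.47, 5.04 and 5.09 in g WT samples. The arrays did not overlap, and all KO values lay below the median negative control signal of 4.65, so the difference of -0.84 (SE 0.18, adjusted p = 0.00428) gives no exact fold. The condensin genes Ncaph and Smc2 fell, with log2 differences of -0.88 and -0.67. Smc4, the partner of Smc2, did not pass (-0.66, adjusted p = 0.098), nor did Ncapd2 (-0.10) or Cdca2 (-0.07).

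Mki67 encodes Ki-67, the chromosome surface protein used as a marker of cycling cells. It measured 6.98, 7.41, 5.70, 7.85 and 6.44 in g KO samples and 8.32, 7.93, 8.36, 8.25 and 8.14 in g WT samples. The highest KO array, g318 KO, was just under the lowest WT array, and g317 KO was lowest. Mki67 fell by 1.32 on the log2 scale (SE 0.30, adjusted p = 0.00693), a fold of 2.5. Top2a, the topoisomerase that untangles sister chromatids, measured 5.95, 5.93, 5.42, 6.22 and 5.74 in g KO samples and 6.54, 6.19, 6.56, 5.92 and 6.96 in g WT samples. Its genotypes overlapped, with g308 WT below 3 KO arrays, and the difference of -0.58 was not called (SE 0.19, adjusted p = 0.0552).

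Among 7 genes of cohesion and anaphase 5 fell and 1 rose. Pttg1, which encodes securin, the inhibitor of the protease separase, measured 8.41, 8.30, 8.56, 8.63 and 8.40 in g KO samples and 8.19, 7.98, 7.96, 7.97 and 8.11 in g WT samples. Every KO array was above every WT array. Pttg1 rose by 0.42 on the log2 scale (SE 0.08, adjusted p = 0.0021), a fold of 1.34. Espl1, which encodes separase itself, was not called (0.02, adjusted p = 0.957). Sgo1 and Cdca5, which encode the cohesin protectors shugoshin and sororin, fell, with log2 differences of -0.70 and -0.65. Cdc20 and Ube2c, which encode an activator and the ubiquitin-conjugating enzyme of the anaphase-promoting complex, fell, with log2 differences of -0.60 and -0.76, and Cdca3 fell by 0.73.

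Spindle assembly had the most listed genes, and 10 of 11 fell. Tpx2, which activates Aurora A and nucleates microtubules, measured 5.34, 5.83, 5.11, 6.0 and 5.17 in g KO samples and 6.51, 6.16, 6.72, 6.55 and 6.40 in g WT samples. The genotypes did not overlap, with g318 KO the highest KO array. Tpx2 fell by 0.98 on the log2 scale (SE 0.18, adjusted p = 0.0013). Kif11, the motor that pushes spindle poles apart, fell by 1.21, Kif15, a motor that can share this task, fell by 0.92, and Kif2c, a microtubule depolymerase, fell by 1.15. Dlgap5, Aspm, Nusap1, Ckap2, Ckap2l and Hmmr, whose products bind spindle microtubules, fell, with log2 differences between -0.50 and -0.94. Kif22, a motor on chromosome arms, was not called (-0.31).

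Of 8 genes of the spindle midzone and cytokinesis 6 fell. Prc1, which bundles the antiparallel microtubules of the midzone, measured 5.07, 5.72, 4.43, 5.86 and 4.27 in g KO samples and 6.59, 6.27, 6.66, 6.27 and 6.62 in g WT samples. The highest KO array stayed below the lowest WT array. Prc1 fell by 1.41 on the log2 scale (SE 0.24, adjusted p = 0.000891), a fold of 2.66. Kif4, a motor partner of Prc1, fell by 0.79, Kif20a fell by 1.2, and Kif20b fell by 0.80. Kif23 and Racgap1, the subunits of centralspindlin, fell, with log2 differences of -0.95 and -0.98. Ect2, which activates RhoA for furrowing, narrowly missed the threshold (-0.88, adjusted p = 0.0522), and Anln, which encodes the furrow scaffold anillin, had a difference of 0.08 (adjusted p = 0.793).

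**Figure D3:**
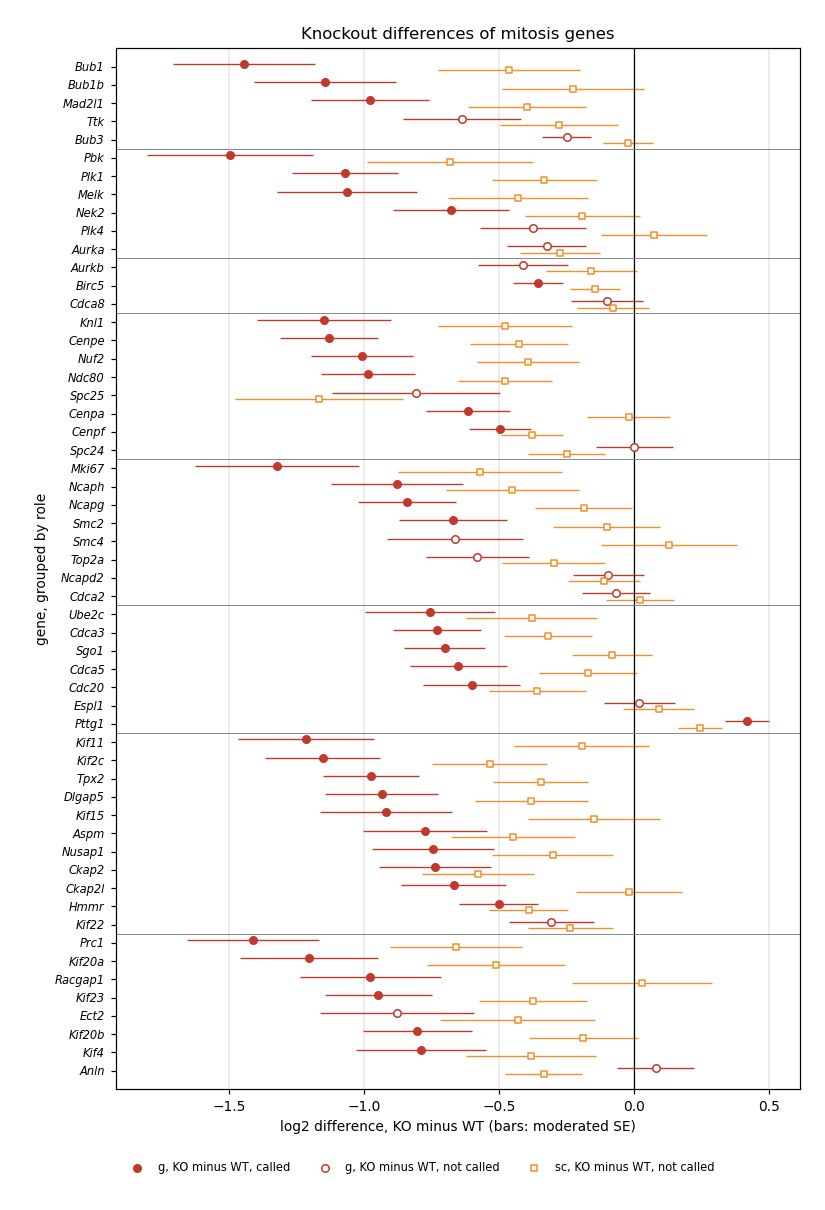
Log2 difference, KO minus WT, of each mitosis gene in g (red) and sc (orange squares), with the moderated SE as bars; filled points were called. In g 40 points are filled, 39 of them below 0 and Pttg1 above it, and in sc none is.

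The KO arrays of g differed among themselves more than the WT arrays, with the larger SD in KO for 51 of the 56 genes. The mean of the 56 genes was 5.71, 5.86, 5.04, 5.98 and 5.27 on the g KO arrays and 6.39, 6.17, 6.40, 6.17 and 6.33 on the g WT arrays. The array g317 KO was the lowest of the 10 g arrays for 36 genes and g320 KO for 15, and these 2 arrays were the lowest pair for 37. The shares over all genes are not given for these counts or for the SD count. None of them is therefore read as particular to this list. The arrays g317 KO and g320 KO also had hepatocyte marker means of 10.45 and 9.37, and the other KO arrays of g had 5.96, 9.76 and 7.89. The part of this signal in the results was not tested beyond the covariate and the left-out arrays given above. The genes that fell in g also without these 2 arrays were Bub1, Cenpe, Kif11, Kif2c, Knl1, Mad2l1, Ndc80, Nuf2, Pbk, Plk1, Prc1 and Tpx2, and Pttg1 rose there too (0.41, adjusted p = 0.021).

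In sc 0 of the 56 genes were called by limma, where 0.677% of all genes were. At an unadjusted p under 0.05 there were 11 genes of the list, and 10.3% of all genes. The median difference was -0.31, against 0.01 over all genes, and 50 of the 56 differences were below 0, as were 48.2% of all. All KO arrays lay below all WT arrays for 4 genes, Cenpf, Hmmr, Dlgap5 and Prc1 (1.53% of all genes). The smallest p belonged to Spc25, with 5.43, 6.63, 4.90, 6.23 and 5.06 in sc KO samples and 6.23, 6.90, 6.94, 6.90 and 7.11 in sc WT samples. Here sc306KO and sc318KO were well above the other KO arrays, and sc306KO was above the lowest WT array. The difference was -1.17 (SE 0.31, adjusted p = 0.0975), and it was called without sc306KO (-1.41, adjusted p = 0.0226), without g317 KO (-1.17, adjusted p = 0.048), whose loss alters the shared spread, and without g317 KO and g320 KO together (-1.17, adjusted p = 0.03).

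The genes described array by array in g had these values in sc. Prc1 measured 4.86, 5.29, 4.90, 5.01 and 5.19 in sc KO samples and 5.90, 6.20, 5.53, 5.52 and 5.41 in sc WT samples, without overlap, a difference of -0.66 (adjusted p = 0.291). Cenpe measured 5.10, 4.82, 5.40, 5.41 and 5.11 in sc KO samples and 5.60, 6.10, 5.27, 5.50 and 5.51 in sc WT samples, a difference of -0.43 (adjusted p = 0.39). Cenpe overlapped between the genotypes, with sc287WT the highest array. Mki67 measured 5.87, 6.99, 6.69, 6.77 and 6.85 in sc KO samples and 7.74, 7.49, 6.78, 7.13 and 6.89 in sc WT samples, a difference of -0.57 (adjusted p = 0.539). Top2a measured 5.20, 5.86, 6.06, 5.77 and 6.25 in sc KO samples and 6.20, 6.22, 6.02, 5.96 and 6.25 in sc WT samples, a difference of -0.30. Both were lowest on sc300KO, the sc array with the highest hepatocyte mean (9.98), and both overlapped. Bub1 measured 4.11, 4.04, 4.31, 4.35 and 4.11 in sc KO samples and 5.36, 4.64, 4.42, 4.30 and 4.5 in sc WT samples, a difference of -0.46. Plk1 measured 5.72, 6.09, 5.76, 6.14 and 5.89 in sc KO samples and 6.65, 6.31, 5.95, 6.09 and 6.26 in sc WT samples, a difference of -0.33. Both were highest on sc286WT, which is also high in lymphocyte and skeletal muscle markers.

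Tpx2 measured 5.14, 5.61, 5.10, 5.40 and 5.29 in sc KO samples and 5.89, 5.86, 5.75, 5.70 and 5.08 in sc WT samples, a difference of -0.35. Ncapg measured 4.06, 4.53, 4.62, 4.44 and 4.35 in sc KO samples and 5.14, 4.41, 4.37, 4.68 and 4.33 in sc WT samples, a difference of -0.19. Both overlapped, Tpx2 through its lowest array sc309WT. Birc5 measured 7.0, 6.96, 6.79, 6.88 and 6.59 in sc KO samples and 7.14, 7.15, 6.93, 6.95 and 6.79 in sc WT samples, a difference of -0.14. Pttg1 measured 8.70, 8.42, 8.60, 8.66 and 8.62 in sc KO samples and 8.33, 8.28, 8.52, 8.34 and 8.30 in sc WT samples, a difference of 0.24 (adjusted p = 0.218). Pttg1 overlapped through sc307WT and sc306KO. Smc4 was high on the 3 arrays high in lymphocyte markers, with 8.53 on sc317KO, 8.55 on sc320KO and 8.34 on sc286WT, and the part of lymphocytes in this was not tested.

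**Figure D4:**
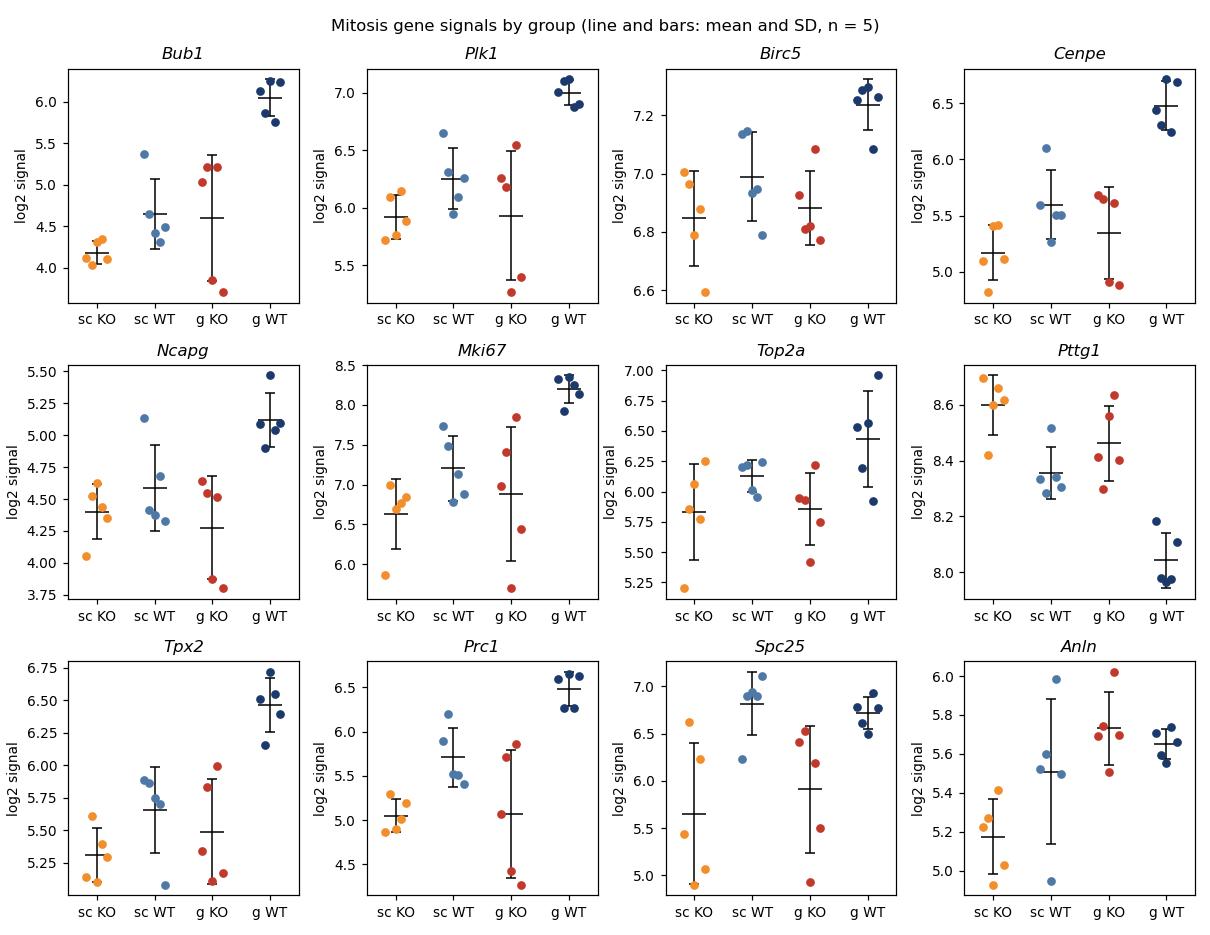
Log2 signals of 12 mitosis genes on every array, grouped as sc KO, sc WT, g KO and g WT, with a line at the mean and bars of 1 SD (n = 5). The g WT arrays are above all g KO arrays for Bub1, Plk1, Cenpe, Ncapg, Mki67, Tpx2 and Prc1 and below them for Pttg1, and Spc25 and Anln show the genes with the smallest p in sc and between the depots of KO samples.

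Whether the knockout difference itself was unequal between depots was tested as the g difference minus the sc difference. By limma 0 of the 56 genes were called (0.0769% of all genes), and 16 had an unadjusted p under 0.05 (13% of all genes). The median was -0.48 and 51 of the 56 values were below 0, as were 48.0% of all. The genes with the smallest p were Sgo1 (-0.62, SE 0.21, adjusted p = 0.231), Kif11 (-1.02, SE 0.36, adjusted p = 0.243) and Cenpe (-0.71, SE 0.26, adjusted p = 0.261). The calls in g and their absence in sc are therefore not shown to differ between depots. The median was -0.18 without g317 KO and g320 KO.

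Between depots, the list was higher in g than in sc in WT samples. There 26 of the 56 genes were called higher in g and 1 lower, against 17.8% of all genes called (9.3% higher and 8.48% lower), and the median was 0.56, against -0.04 over all genes. These comparisons share the g WT arrays with the knockout comparison in g, so the values are given side by side and not as separate evidence. Bub1 was 6.05 ± 0.22 in g WT samples and 4.64 ± 0.42 in sc WT samples (SD, n = 5), higher in g by 1.40 (adjusted p = 0.000773), a size limited by the sc mean at the negative control median. Bub1b was higher by 1.26, Kif11 by 1.08, Mki67 by 0.99 and Cenpe by 0.88. Pttg1 was the gene lower in g, with 8.04 ± 0.10 in g WT samples and 8.36 ± 0.09 in sc WT samples, a difference of -0.31 (adjusted p = 0.00993). The count of called genes of the list was between 16 and 31 when 1 array was left out, with the shares of all genes not given for these fits. Markers of other cells differed in the same comparison. Adgre1 and Csf1r, the macrophage genes taken up further on, were higher in g by 2.02 (adjusted p = 6.12e-06) and 1.31 (adjusted p = 9.25e-07), and 17 of 18 macrophage and 8 of 9 mast cell markers were called higher. Of 13 adipocyte markers 12 were called lower in g. With the mean of Adgre1 and Csf1r as a covariate 0 of the 56 genes were called and the median was -0.40. The share of all genes called in that fit is not given, so the 0 is not read as a result about this list alone. The mean of Adgre1 and Csf1r did not overlap between the depots of WT samples, so depot and macrophage signal cannot be told apart.

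In KO samples 1 of the 56 genes was called between depots (4.13% of all genes), and the median was 0.09, against -0.02 over all genes. Anln measured 5.69, 5.74, 5.50, 6.02 and 5.69 in g KO samples and 5.23, 5.27, 4.93, 5.41 and 5.03 in sc KO samples. The arrays did not overlap, and Anln was higher in g by 0.56 (SE 0.14, adjusted p = 0.0294). The call was lost without sc317KO, sc320KO, g306 KO or g318 KO. Mki67 differed by 0.24 between these groups (adjusted p = 0.74), Bub1 by 0.42 and Plk1 by 0.01. Without g317 KO and g320 KO 6 genes were called higher in g, with a median of 0.41. The share of all genes called in that fit is not given, so the count is not read as a result about this list alone. Macrophage genes were higher in g here too, Adgre1 by 1.14 (adjusted p = 0.006) and Csf1r by 0.81 (adjusted p = 0.000362), and 14 of 18 macrophage markers were called higher. Of 9 mast cell and 13 adipocyte markers 0 were called by limma, with 2 and 6 at an unadjusted p under 0.05. The share of all genes at that p is not given for this comparison. With the mean of Adgre1 and Csf1r as a covariate 0 of the 56 genes were called and the median was -0.52, again without the share of all genes called. The mean of Adgre1 and Csf1r was at most 8.26 in sc KO and at least 8.54 in g KO samples. Depot and macrophage signal therefore cannot be told apart in KO samples either.

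The last question was how the list varies with macrophage genes across arrays, taken as Adgre1, which encodes a surface protein of macrophages, and Csf1r, the receptor for macrophage colony-stimulating factor. Adgre1 measured 8.40, 8.77, 7.37, 8.60 and 7.65 in g KO samples and 9.73, 9.43, 9.84, 9.32 and 9.97 in g WT samples. The genotypes did not overlap, and g317 KO and g320 KO were lowest, as for the mitosis genes. Adgre1 fell by 1.5 in g KO samples (adjusted p = 0.000389) and Csf1r fell by 0.72 (adjusted p = 0.000723), while in sc neither was called (-0.62, adjusted p = 0.293, and -0.23, adjusted p = 0.544). Of 18 measured macrophage markers 16 fell in g and 1 rose, Cd163 (1.04, adjusted p = 0.0035; named after its value was seen), and their mean ranged from 8.57 to 9.37 over g KO arrays and from 9.60 to 10.18 over g WT arrays.

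Over the 10 g arrays Mki67 correlated with Adgre1 at Pearson r = 0.94 and Spearman rho = 0.89 (permutation adjusted p = 0.00072 and 0.0048 over 8 relations). Since the genotypes are apart in both genes, this value holds the genotype difference. So does its permutation p, from shuffles over all 10 g arrays of both genotypes. With the genotype means taken out r was 0.87, and without g317 KO and g320 KO, the arrays farthest from the median of Adgre1, it was 0.84. Top2a correlated with Adgre1 at r = 0.88 and rho = 0.85 (permutation adjusted p = 0.00152 and 0.00739), with 0.79 within genotypes and 0.78 without these arrays. With Csf1r Mki67 had r = 0.89 and rho = 0.94 (permutation adjusted p = 0.001 and 0.00152), 0.68 within genotypes and 0.85 without g320 KO and g307 WT. Top2a had r = 0.84 and rho = 0.81 with Csf1r (permutation adjusted p = 0.00358 and 0.015), 0.71 within genotypes and 0.82 without them. In all these relations the values within genotypes keep all 10 g arrays, and the values with arrays left out keep the genotype difference. No r was computed with both taken out, so whether the relations hold beyond both was not tested.

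Over the 10 sc arrays the relations of Mki67 and Top2a with Adgre1 and Csf1r had r of 0.29, 0.14, 0.21 and 0.45, and rho of 0.36, 0.01, -0.02 and 0.33, for Mki67 and Top2a with Adgre1 and then with Csf1r. None of the 4 passed (permutation adjusted p of r 0.307 or more). Within genotypes r was -0.31, -0.40, -0.22 and 0.23. Without the 2 arrays farthest from the median of the macrophage gene r was 0.48, 0.57, 0.38 and 0.46, values that keep the genotype difference. The arrays left out were sc320KO and sc307WT for Adgre1, and sc306KO and sc317KO for Csf1r. As a description, the mean of the 56 genes had r = 0.98 with Adgre1 and 0.94 with Csf1r in g, and 0.46 and 0.23 in sc. With all arrays kept, the values within genotypes were 0.96 and 0.81 in g and -0.11 and -0.29 in sc. Gene by gene, r with Adgre1 in g had a median of 0.91 and was above 0.5 for 50 of the 56 genes. It was below 0 for Pttg1 (-0.79), Espl1 (-0.04) and Anln (-0.01), and the median in sc was 0.36.

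**Figure D5:**
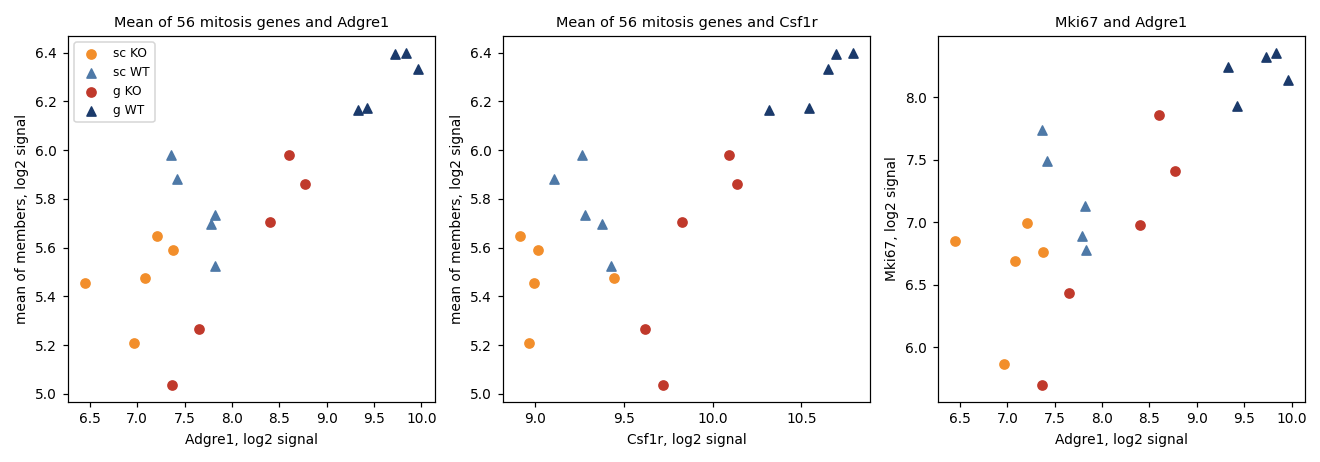
Mean log2 signal of the 56 mitosis genes against Adgre1 (left) and Csf1r (middle), and Mki67 against Adgre1 (right), with 1 point per array; circles are KO and triangles WT samples. The mean of the 56 genes had r = 0.98 with Adgre1 over the g arrays, which run from g317 KO up to the g WT arrays, and r = 0.46 over the sc arrays; the difference between depots was not tested.

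With the mean of Adgre1 and Csf1r as a covariate 0 of the 56 genes were called in g and the median difference was -0.07. Over all genes 1 was called under that covariate, which differs between the genotypes without overlap, so genotype and macrophage signal cannot be told apart in g. Other lists also moved in g. All 9 mast cell markers fell, among them Cpa3 (-2.63, adjusted p = 4.62e-05) and Tpsb2 (-2.19, adjusted p = 3.97e-05), and their mean ranged from 5.44 to 6.28 over g KO arrays and from 7.35 to 8.35 over g WT arrays. Of 13 adipocyte markers 9 rose, among them Retn (1.38, adjusted p = 6.26e-06) and Slc2a4 (1.23, adjusted p = 3.97e-05), and 0 fell. Their mean ranged from 11.25 to 11.47 over g KO arrays and from 10.67 to 11.09 over g WT arrays. Of 8 preadipocyte markers 1 fell, Dcn (-0.28, adjusted p = 0.028), and of 15 lymphocyte markers 0 were called by limma in g, with 0 at an unadjusted p under 0.05. All 15 lymphocyte differences were below 0, with a median of -0.41 and marker means of 5.62 ± 0.14 in g KO and 6.11 ± 0.42 in g WT samples (SD, n = 5). With the lymphocyte marker mean as a covariate 41 of the 56 mitosis genes fell in g and 1 rose, with a median of -0.74. The share of all genes called in that fit is not given. As a description, the mean of the 56 genes varied with other marker means too over the 10 g arrays. Pearson r was 0.95 with germinal centre, 0.77 with mast cell, 0.71 with lymphocyte and 0.37 with preadipocyte markers. It was -0.80 with adipocyte, -0.71 with mesothelial, -0.64 with hepatocyte, -0.55 with skeletal muscle and -0.33 with endothelial markers. Within genotypes r was 0.86, 0.10, 0.41 and -0.32, then -0.27, -0.65, -0.45, -0.35 and 0.0042. The part of mast cells, fat cells and preadipocytes in the mitosis genes was not tested.

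A further list of 97 mitosis and cell cycle genes, of which 91 were measured, was set beside the 56. In g 24 of the 91 fell and 0 rose, with a median difference of -0.23, against 6.27% of all genes called as lower. Ccna2 and Ccnb2, which encode the mitotic cyclins A2 and B2, fell, with log2 differences of -1.17 (adjusted p = 0.000801) and -0.96 (adjusted p = 0.003). Fbxo5, whose product Emi1 restrains the anaphase-promoting complex, fell by 0.97 (adjusted p = 0.000594), and Mybl2, a transcription factor of late cell cycle genes, fell by 0.57. Mastl, a kinase that keeps phosphatase activity low in mitosis, fell by 1.12, the centromere gene Cenpi fell by 1.17, and Incenp, the scaffold of the chromosomal passenger complex, fell by 0.76. Kif14, Arhgap11a and Pimreg fell, with log2 differences of -0.83, -1.10 and -0.59. In sc 0 of the 91 were called by limma, against 0.677% of all genes. At an unadjusted p under 0.05 there were 11, against 10.3% of all genes, and the median was -0.06. Between depots in WT samples 20 were higher in g and 1 lower (9.3% and 8.48% of all genes), with a median of 0.16.

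Among the 48 genes with a promoter entry, 25 of the 36 with TTTGAA and 10 of the 12 without it fell in g, with medians of -0.75 and -0.81.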

How the data were processed

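Total RNA of 20 samples was hybridised to mouse expression arrays with 1 colour. Per the labels, 100 ng of RNA a sample was labelled with biotin. The authors deposited RMA-normalised log2 signals per probe, and the submitters' processing notes also name limma, with versions and genome build not given in the sources used here. The series' design text gives 10 of the arrays another gene name, and the labels, which all name Olfm2, were used.

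The table holds 28846 probes. After 6640 control probes and 2634 probes without 1 symbol were left out, 19572 remained. The probe with the highest mean was kept for 55 genes with several, which gave 19505 genes. Differences were tested with limma 3.58.1 (R 4.3.3). The model held 1 mean per group and no covariate, which left 16 residual degrees of freedom, with Benjamini-Hochberg adjustment over all genes. SE is the moderated SE and SD is over the arrays of a group. Relations across arrays were tested by 100000 permutations. The fit was run on simulated data with independent genes and the same SD of a gene in all groups. That run does not test the fit under the unequal spread seen in g. The number of arrays limits the precision.

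The mitosis genes, the marker lists and the alternatives were chosen with earlier results of these data known. Array values were given for Mki67, Top2a and the gene with the smallest p in g of each role, and added after seeing values for Spc25 and Anln. Of the further list the 10 with the smallest p in g were named, and of a marker list up to 4.

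The title numbers occur once in each depot. Residuals of same-numbered sc and g arrays correlated between -0.461 and 0.142, so the numbers were not taken as pairs. Alternatives were other normalisations, a filter on dim genes, array weights, marker means as covariates, leaving out arrays and the title number as a block. Promoter sequences are RefSeq's (GRCm38.p6).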

Additional observations from a re-analysis of the deposited data

Results flagged for a closer look

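Within groups of 5 arrays, 18 of 240 combinations of gene and group (7.5%) had 1 array far from the others by Dixon's criterion, and chance gives about 1 in 20. On sc300KO the low values were 4.32 for Bub1b, 5.87 for Mki67 and 4.06 for Hmmr, and this array had a hepatocyte marker mean of 9.98. On sc286WT, the array with the highest skeletal muscle marker mean (11.10) and a high lymphocyte mean (8.10), Mad2l1 was high at 7.32 and Cenpa at 7.13, and Spc25 low at 6.23. On sc306KO Kif15 was high at 5.43 and Kif2c low at 4.17. On sc307WT Pttg1 was high at 8.52 and Ect2 low at 5.25. Tpx2 was low on sc309WT at 5.08, and the macrophage gene Csf1r was high on sc317KO at 9.44.

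In g, g308 WT was low for 4 genes, with 4.46 for Plk4, 7.09 for Birc5, 5.39 for Cenpf and 5.01 for Knl1, and its hepatocyte marker mean was 9.04. Sgo1 was low on g287 WT at 5.04 and Smc2 on g317 KO at 4.77.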

How the results depend on the processing

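In g the direction of the list stayed below 0 and its calls stayed within 1.5 times under 7 other settings of normalisation, filter, weights, probe choice and variance, and under the block. The mean of Adgre1 and Csf1r as a covariate moved every median of the 56 genes: to -0.0407 for KO against WT in sc, -0.0674 in g, -0.0812 for the difference of these effects, -0.40 for g against sc in WT and -0.52 in KO samples, with 0 genes called in g and 0 in each depot comparison. In a fit of the 10 g arrays alone, added after seeing the data, this covariate gave 0 calls and a median of 0.26. Genes not called in g without the covariate are left out of the 2 lists that follow. Among those called without it, it turned the KO minus WT difference in g of these genes, none of them called with it, where Adgre1 is itself part of the covariate, here and in the fit of the g arrays alone: Adgre1 0.0751, Aspm 0.0968, Cenpa 0.16, Ckap2 0.0812, Dlgap5 0.086, Kif11 0.10, Kif4 0.27, Ncaph 0.0677, Nek2 0.21, Nusap1 0.21, Pbk 0.25, Smc2 0.0396 and Ube2c 0.29. In the fit of the g arrays alone the turned differences were Adgre1 0.0826, Aspm 0.42, Bub1 0.35, Bub1b 0.47, Cdca3 0.0597, Cdca5 0.31, Cenpa 0.48, Cenpf 0.13, Ckap2 0.40, Ckap2l 0.22, Dlgap5 0.57, Hmmr 0.0941, Kif11 0.54, Kif20a 0.14, Kif23 0.27, Kif2c 0.00376, Kif4 0.86, Mad2l1 0.0868, Melk 0.34, Mki67 0.40, Ncapg 0.0769, Ncaph 0.46, Nek2 0.30, Nusap1 0.46, Pbk 0.50, Plk1 0.0697, Prc1 0.27, Racgap1 0.47, Smc2 0.26 and Ube2c 0.58.

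With the hepatocyte marker mean as a covariate 22 genes were called in g and 0 between depots in KO samples, and without the arrays high in hepatocyte markers 0 and 0. The call between depots in KO samples was also lost with array weights and without the arrays high in lymphocyte markers (0 each). Without g317 KO and g320 KO, also added after seeing the data, the counts were 13 in g (median -0.42), 1 in sc and 6 between depots in KO samples (median 0.41), and the median of the difference of effects was -0.18.

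Leaving out 1 array gave 26 to 45 calls in g, 0 to 1 in sc, 16 to 31 between depots in WT and 0 to 1 in KO samples. The lowest count in g, 26, came without g317 KO. In WT samples the count was 16 or 17 without sc307WT, sc309WT, g286 WT or g307 WT. With the title number as a replicate block 41 genes were called in g, 0 in sc, 0 for the difference of effects, 30 between depots in WT and 1 in KO samples. Residuals of 3 of 10 numbers matched their own number best, and the numbers were not taken as pairs. Each number has the same genotype in both depots, and the labels do not say whether it names an animal. The causes of these changes were not tested, and the shares of all genes called under each setting are not given beside the counts. The 7 dim genes and 5 arrays a group limit what can be seen.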

Other observations

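Other marker lists gave these values. Of 7 measured germinal centre markers 3 fell in g KO samples, Rgs13 (-0.62), S1pr2 (-0.68) and Mybl1 (-0.66), with a mean of 5.69 ± 0.16 in g KO and 6.01 ± 0.11 in g WT samples (SD, n = 5). Mybl1 is also a cell cycle factor of the Myb family, and Rgs13 was dimmer than the negative controls. Of 10 endothelial markers 1 rose in g, Esam (0.35, adjusted p = 0.0266). By limma 0 of 7 mesothelial markers were called in g, with 5 at an unadjusted p under 0.05 and a median difference of 0.64. Of 16 hepatocyte markers 0 were called by limma in g, with 7 at an unadjusted p under 0.05 and a median difference of 1.81. The share of all genes at that p in g is not given for these marker counts. Skeletal muscle markers reached a mean of 11.10 on sc286WT and 9.25 on sc307WT, and stayed at or below 5.60 on every g array. In sc 1 macrophage marker fell in KO samples, Mrc1 (-0.55, adjusted p = 0.0371).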
